A study of Mus musculus with 2 samples.

Results

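The interferon-stimulated genes described here are 40 mouse genes chosen by symbol, of which 38 had a row among the 32285 genes counted. Mx1 and Mx2 had no row and were not analysed here. The 38 genes were measured by single-cell RNA sequencing in GL261, a glioma cell line of C57BL/6 mice that the labels call an astrocytoma. Adherent cells were grown in DMEM with serum and antibiotics, and neurosphere cells came from the same line, kept for 12 days in that medium with B-27 and, each at 20 ng/ml, the growth factors EGF (epidermal) and FGF (fibroblast). Trypsin was used on both cultures, and the neurospheres were also broken up through a series of pipette tips. The labels name no interferon, no gene edit and no drug in either. Each culture is 1 library, so growth factors, growth form, dissociation, time and library cannot be told apart, and no difference between cultures has a replicate check. All intervals are exact 95% intervals that cover counting error only.

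Interferons are secreted proteins that cells release on sensing viral or misplaced nucleic acid. Type I interferons bind a receptor made of IFNAR1 and IFNAR2, whose kinases activate STAT2, which joins IRF9 in a complex that binds the interferon-stimulated response element in promoters. Many cells keep these genes at a low standing level, called tonic expression, and single cells can also express them in a burst.

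The kept cells numbered 5051 adherent and 4276 neurosphere cells, with a median of 8260 and 13198.5 unique molecular identifiers (UMIs, each standing for 1 captured transcript). The glial and stem cell genes Vim, Nes, Sox2 and Olig2 were detected in both libraries, while Gfap had 30 and 27 UMIs and Egfr 24 and 1. Of 12 immune cell markers, C1qa and Tyrobp were at 0 UMIs in both libraries and Ptprc had 1 and 0. Cd68 had the most, with 485 and 276 UMIs in 7.60% and 4.93% of cells, followed by Lyz2 with 119 and 34. Fcer1g had 13 and 33 UMIs, Csf1r had 5 and 19, and no other marker had more than 2. Between the libraries, 9 kept barcodes were shared. No cell type that should lack the members exists in these libraries to give a background for a share of cells with a UMI.

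The response element was searched for as its core (GAAA, any 2 bases, then GAAA) on both strands of promoter windows of 300 bases, 250 before and 50 after each RefSeq start in the GRCm38.p6 assembly. A window was given for 30 members. The core was in the windows of 13 of them (43.3%) and in those of 3.99% of 27025 genes. Without the 50 bases after the start, 10 of the 30 (33.3%) and 3.46% of all genes held it. The core TTCNNNGAA of the gamma-activated site, a promoter element of the response to interferon gamma, was in the windows of 9 of the 30 members (30%) and of 9.55% of all genes. In Bst2 it overlapped the response element core. Such a match is a description of the letters only. The following 40-base stretches are shown because they belong to members whose cell-to-cell pattern is described here, with Oas3 and Stat2 beside them. They are written 5′ to 3′ along the strand of the gene, and capitals mark every base in a core.
Isg15: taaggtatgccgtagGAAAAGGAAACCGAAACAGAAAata
Bst2: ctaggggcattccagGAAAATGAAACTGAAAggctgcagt
Rsad2: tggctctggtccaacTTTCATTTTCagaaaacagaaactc
Ifit1: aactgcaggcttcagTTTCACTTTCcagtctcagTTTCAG
Ifit3 and Ifit3b: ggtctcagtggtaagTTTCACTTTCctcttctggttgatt
Oas3: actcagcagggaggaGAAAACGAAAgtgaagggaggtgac
Stat2: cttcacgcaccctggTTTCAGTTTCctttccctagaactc
The stretch of Isg15 (chr4:156200872-156200911, minus strand) holds 3 overlapping cores, the first of which ends 68 bases before the start. That of Bst2 (chr8:71537578-71537617, minus) holds 2 overlapping cores, and that of Rsad2 (chr12:26456548-26456587, minus) holds 1. In Ifit1 (chr19:34640770-34640809, plus) a second core runs past the end of the stretch. The stretches of Ifit3 (chr19:34583358-34583397, plus) and Ifit3b (chr19:34607754-34607793, plus) are identical. Those of Oas3 (chr5:120777710-120777749, minus) and Stat2 (chr10:128270261-128270300, plus) each hold 1 core.

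In the summed counts, most of the interferon-stimulated genes had a lower level in neurosphere cells, and the difference was uneven among their roles. Levels are given as UMIs per 1000000 UMIs of a library (CPM), and a log2 ratio is that of neurosphere to adherent CPM. Of the 38 members, 19 (50%) were over 2-fold lower, against 11.7% of the 14654 genes that reached 50 UMIs in the sum of the libraries. Over 2-fold higher were 0 members, against 21.7% of all genes. The median log2 ratio was -1.16 over the members and 0.32 over all genes. The interval lay under 0 for 30 members, above 0 for 4 and across 0 for 4. Together the members reached 8722 CPM in the adherent and 2372 CPM in the neurosphere library. The share of this from Bst2 and Isg15 was 68.2% in the former and 35.8% in the latter, and the remaining members had 2778 and 1523 CPM.

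**Figure D1:**
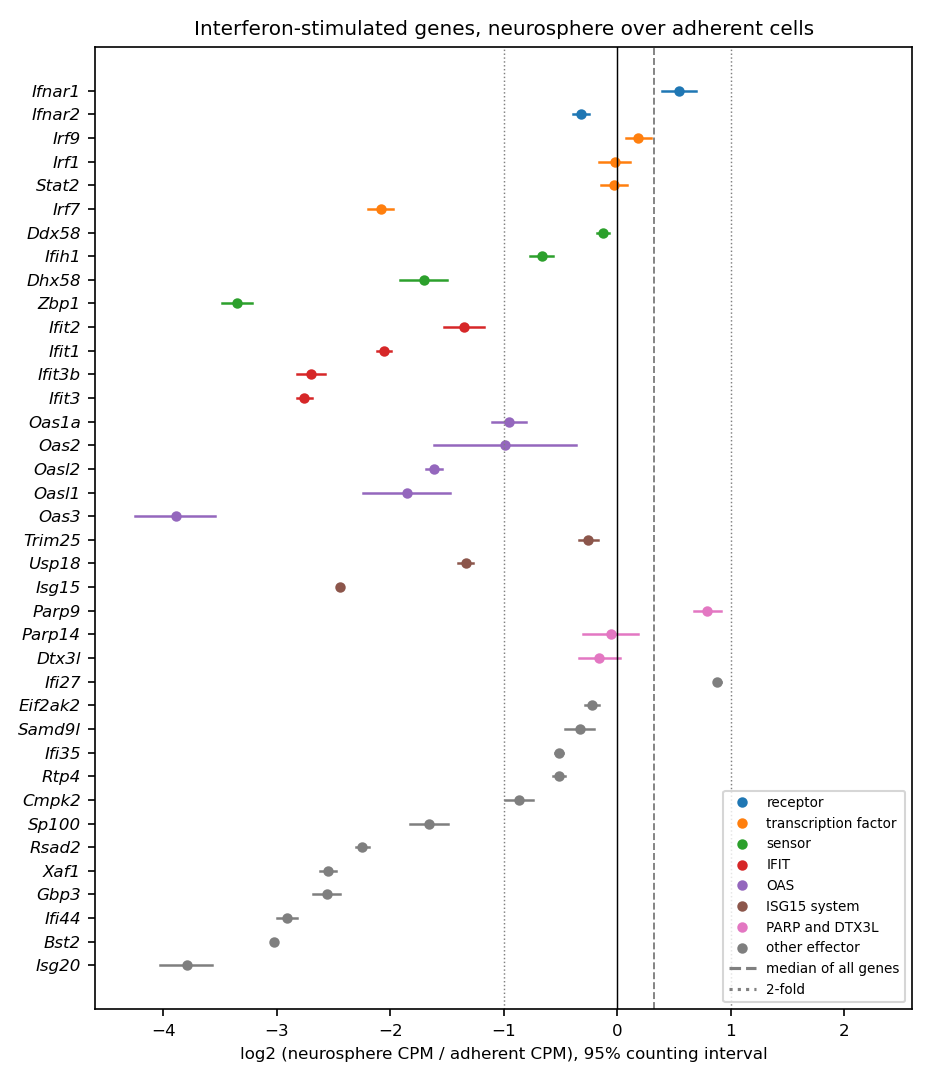
Each point is the log2 ratio of neurosphere to adherent CPM of a member, coloured by role, with its exact 95% counting interval as a bar. The dashed line is the median of all genes (0.32) and the dotted lines mark 2-fold. The IFIT genes all lie left of the lower dotted line, and the receptor subunits, the PARP and DTX3L genes and 3 of 4 transcription factors lie between the dotted lines.

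The receptor and the factors that relay its signal were present in both cultures at levels less than 2-fold apart, with Irf7 as the exception. Ifnar1 had 11.8 CPM in the adherent library and 17.3 CPM in the neurosphere library, the order used for each pair of values (log2 ratio 0.55, interval 0.40 to 0.70). Ifnar2 had 74.4 and 59.6 CPM (-0.32, -0.39 to -0.25). Both subunits of the receptor were thus measured in each culture, with opposite signs. Stat2, which encodes the partner of IRF9 in the complex, had 24.0 and 23.6 CPM (-0.03, -0.14 to 0.09). Irf1, a factor that also acts downstream of interferon gamma, had 16.3 and 16.1 CPM (-0.02, -0.16 to 0.11). The intervals of Stat2 and Irf1 include 0, and their signs turned under several alternatives. Irf9, the DNA-binding part of the complex, had 23.9 and 27.2 CPM (0.19), a sign that turned to -0.03 when the libraries were scaled by TMM (trimmed mean of M-values). Irf7, an inducible factor that amplifies interferon transcription, had 60.0 and 14.1 CPM (-2.09, -2.20 to -1.98). Outside the 40 genes, 13 receptor, kinase and feedback genes reached 50 UMIs over both libraries. Of these, 0 were over 2-fold lower, against 11.7% of all genes, and 1 was higher, against 21.7%. The higher gene was Ifngr1 of the interferon gamma receptor (1.96), named after its value was seen.

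Of the 4 sensor genes, 2 were over 2-fold lower. Zbp1, a sensor of left-handed nucleic acid, had 84.1 and 8.25 CPM (-3.35, -3.48 to -3.22). Dhx58, which encodes LGP2, had 13.5 and 4.13 CPM (-1.71, -1.92 to -1.50). The RNA sensors RIG-I (Ddx58) and MDA5 (Ifih1) were closer between cultures. Ddx58 had 104 and 95.9 CPM (-0.12), and its sign turned to 0.10 when the total also counted mitochondrial and ribosomal genes, and to 0.01 with equal UMIs per cell. Ifih1 had a log2 ratio of -0.67 (-0.77 to -0.56). Among 18 other genes that sense nucleic acid or induce interferon, 3 were over 2-fold lower, against 11.7% of all genes, and 0 higher, against 21.7%. Their median was 0.28, beside 0.32 over all genes. The 3 were Irf5, Rnaseh2a and Rnaseh2c, named after their values were seen.

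All 4 IFIT genes, which encode proteins that bind foreign RNA, were over 2-fold lower in neurosphere cells. Ifit3 had 224 and 33.2 CPM (-2.76, -2.83 to -2.69). Ifit3b had 65.8 and 10.1 CPM (-2.70, -2.82 to -2.58). Ifit3 and Ifit3b are near copies, and 14.9% of the 50-base words in the last 500 bases of the Ifit3 transcript also occur in that of Ifit3b, so reads could be split between them. Ifit1 had 190 and 45.7 CPM (-2.05, -2.11 to -1.99). Ifit2 had 16.03 and 6.28 CPM (-1.35, -1.53 to -1.18). The 4 genes lie on the plus strand of chromosome 19, from Ifit2 (start 34550694) to Ifit1 (end 34650009), in the GENCODE annotation of GRCm38.

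The OAS genes, a family in which several enzymes make the messenger that activates RNase L, ranged widely. Oas3 had 17.1 and 1.15 CPM (-3.89, -4.25 to -3.54). Oas2, which lies 3.2 kb from Oas3 on the same strand, had 55 and 39 UMIs (-0.98, -1.62 to -0.37). Oasl2 had 115 and 37.7 CPM (-1.61), and Oasl1 had 4.56 and 1.26 CPM (-1.85). Oas1a had a log2 ratio of -0.96, and 56.1% of the words near its 3′ end are shared with Oas1g, so its count is uncertain. In the ISG15 system, a ubiquitin-like modifier pathway, Isg15 itself had 1928 and 354 CPM (-2.44, -2.47 to -2.42). Usp18, the protease that removes ISG15 and dampens receptor signalling, had 121 and 47.8 CPM (-1.34). Trim25, a ligase for ISG15, had a log2 ratio of -0.25.

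Among the other effectors, 7 of 13 were over 2-fold lower. Bst2, which encodes the membrane protein tetherin, had 4016 and 494 CPM (-3.02, -3.04 to -3.00). Isg20, an exonuclease, had 37.7 and 2.71 CPM (-3.80, -4.03 to -3.57). Ifi44 had 140 and 18.7 CPM (-2.91). Gbp3, a guanylate-binding protein, had 65.3 and 11.1 CPM (-2.56), and Xaf1 had 174 and 29.7 CPM (-2.55). Rsad2, which encodes viperin, had 251 and 52.9 CPM (-2.25, -2.30 to -2.19). Sp100, a nuclear body protein, had 20.7 and 6.56 CPM (-1.66). Cmpk2, a mitochondrial nucleotide kinase gene 12.8 kb from Rsad2 on the opposite strand, had 27.4 and 15.04 CPM (-0.87, -0.99 to -0.75). Of the other 5, Ifi35, Rtp4, Samd9l and Eif2ak2 had log2 ratios from -0.52 to -0.22. Ifi27 was the exception, with 240 and 443 CPM (0.88, 0.85 to 0.91).

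The PARP and DTX3L genes had log2 ratios near 0 or above it. Parp9 had 17.4 and 30.1 CPM (0.80, 0.68 to 0.92). Dtx3l, whose product pairs with PARP9, had 9.55 and 8.56 CPM (-0.16, -0.34 to 0.03). The annotated genes overlap by 682 bases on opposite strands. Parp14 had a log2 ratio of -0.06 (-0.30 to 0.19).

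The same direction was seen in many interferon-inducible genes outside the 40. Of 51 such genes, 25 were over 2-fold lower, against 11.7% of all genes, and 2 were higher, against 21.7%. The 2 were Gbp6 and Ogfr, named after their values were seen, and the median of the 51 genes was -0.99. The membrane protein gene Ifitm3 had 4374 and 408 CPM (-3.42). Of 17 chemokine and MHC class I genes, 6 were over 2-fold lower and 2 higher, against the same shares of all genes, with a median of -0.37. The chemokine gene Cxcl10 had 295 and 24.6 CPM (-3.58). The listed H2 genes of MHC class I had either sign, from -3.15 for H2-T23 to 0.85 for H2-Q4, with H2-K1 at 0.68 and H2-D1 at -0.37. B2m was at -0.45. The 2 higher genes were Ccl2 and Ccl7, the latter with 51 UMIs over both libraries, in 3 adherent and 48 neurosphere counts.

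Beyond the summed level, members differed in how their UMIs were spread over cells. To compare cells of equal depth, each was thinned to 5000 UMIs, which left 4464 adherent and 4196 neurosphere cells, with 587 and 80 too shallow. At equal depth, the median member was detected in 22.8% of the adherent and 8.58% of the neurosphere cells, and 6 and 4 members were detected in over 50% of cells. Bst2 was detected in 100% and 78.2% of thinned cells, and in 99.8% and 93.4% of cells before thinning. Isg15 was detected in 99.04% and 56.9%, and in 98.97% and 74.7% before. Rsad2 was found in 46.8% and 14.1% (58.5% and 29.5% before), and Ifit3 in 52.3% and 7.77% (63.0% and 13.1% before). How much of these shares came from free RNA was not tested. Ifi27 showed the other order, with 64.8% and 85.6%.

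**Figure D2:**
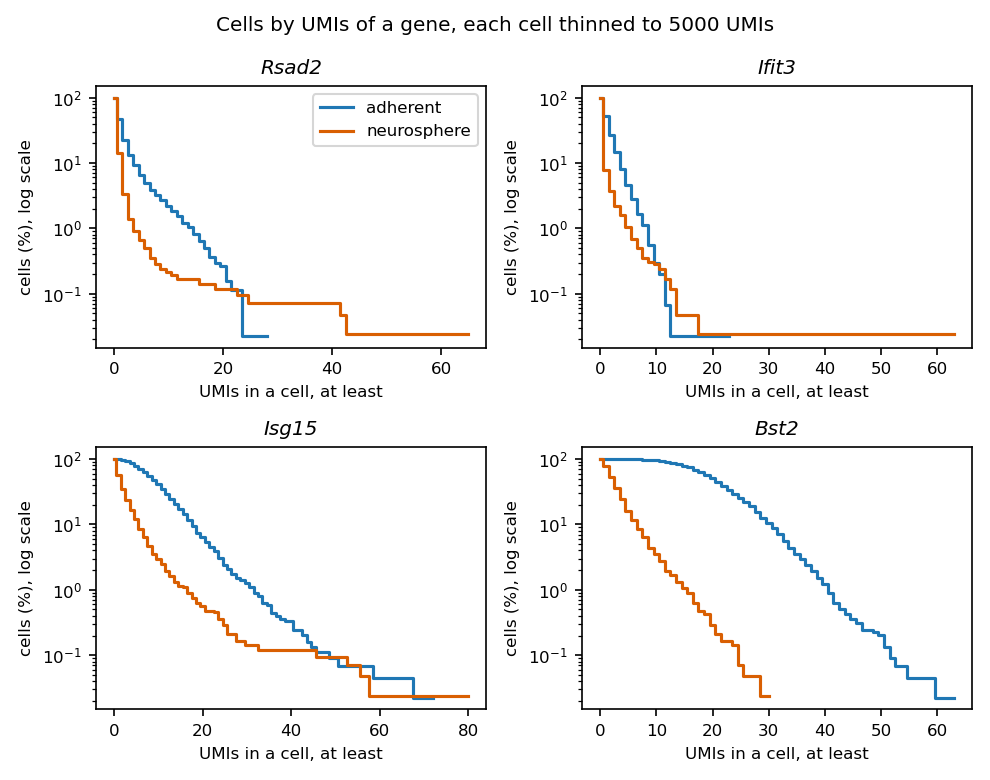
Each panel shows the percent of thinned cells (log scale) with at least the number of UMIs of a gene on the x axis, in adherent and neurosphere cells. The neurosphere line starts lower for all 4 genes. For Rsad2, Ifit3 and Isg15 it ends at 65, 63 and 80 UMIs, and the adherent line ends at 28, 23 and 72. Each of these ends is a single cell. The next neurosphere cell held 42, 17 and 57 UMIs, which for Ifit3 and Isg15 is fewer than in the highest adherent cell. The next adherent cell held 23, 12 and 67 UMIs.

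The spread was measured as the ratio of variance to mean of a gene's thinned UMIs over cells, which is near 1 for chance sampling and grows with the mean. A member was called uneven at a ratio of at least 2 and even under 1.2. Of the 37 members with at least 50 thinned UMIs in adherent cells, 5 were uneven, against 1.51% of all genes, and 22 were even, against 90.6%. The 5 were Rsad2, Ifit1, Ifit3, Isg15 and Bst2. In neurosphere cells 8 of 35 members were uneven, against 3.55% of all genes, and 14 were even, against 82.1%. Those 8 added Ifit2, Ifit3b and Cmpk2 to the same 5. The moment estimate of dispersion, which allows for the mean, had a median of 0.55 over members and 0.23 over all genes in adherent cells, and of 1.75 and 0.32 in neurosphere cells.

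Rsad2 had a variance-to-mean ratio of 5.13 in adherent and 10.3 in neurosphere cells, and its dispersion was 3.32 and 35.9. The 1% of cells with the most Rsad2 held 14.1% of its thinned UMIs in the adherent library and 38.5% in the neurosphere library. To hold 50% of these UMIs it took 7.41% and 2.29% of cells. For Ifit3 the ratio was 2.41 and 8.96, and the top 1% of cells held 8.31% and 44.2%. Ifit1 had ratios of 3.29 and 6.06, and the top 1% held 12.4% and 30.6%. The ratios of Ifit2 were 1.56 and 3.26, those of Ifit3b 1.42 and 5.57, and those of Cmpk2 1.26 and 2.45. Single cells carried part of the neurosphere ratios. Without the cell with the most UMIs of the gene, an alternative added after seeing the data, the neurosphere ratio was 6.79 for Rsad2, 4.67 for Ifit3, 3.50 for Ifit1, 2.39 for Ifit2 and 2.23 for Ifit3b. That of Cmpk2 was 1.67, under the bound of 2. The adherent ratios moved by less, to 5.03 for Rsad2 and 2.33 for Ifit3. In all 6 genes 50% of the UMIs were in a smaller share of cells in the neurosphere library, where each also had fewer UMIs, and a gene with fewer UMIs reaches fewer cells.

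Bst2 and Isg15 also passed this bound, with a dispersion in adherent cells under that of Rsad2. The dispersion of Bst2 was also under the median over all genes in adherent cells (0.23), and above that median in neurosphere cells (0.32). Bst2 had a ratio of 2.56 and 3.54 but a dispersion of 0.08 and 0.99, and the top 1% of cells held 2.22% and 7.30% of its UMIs. For Isg15 the ratio was 4.23 and 6.88, the dispersion 0.34 and 3.11, and the top 1% held 4.09% and 13.3%. The receptor subunits were even in both cultures, with ratios of 1.00 and 1.03 for Ifnar1 and of 1.07 and 1.07 for Ifnar2. Oasl1 had too few thinned UMIs in neurosphere cells to be counted, and 23 of its 40 were in 1 cell.

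**Figure D3:**
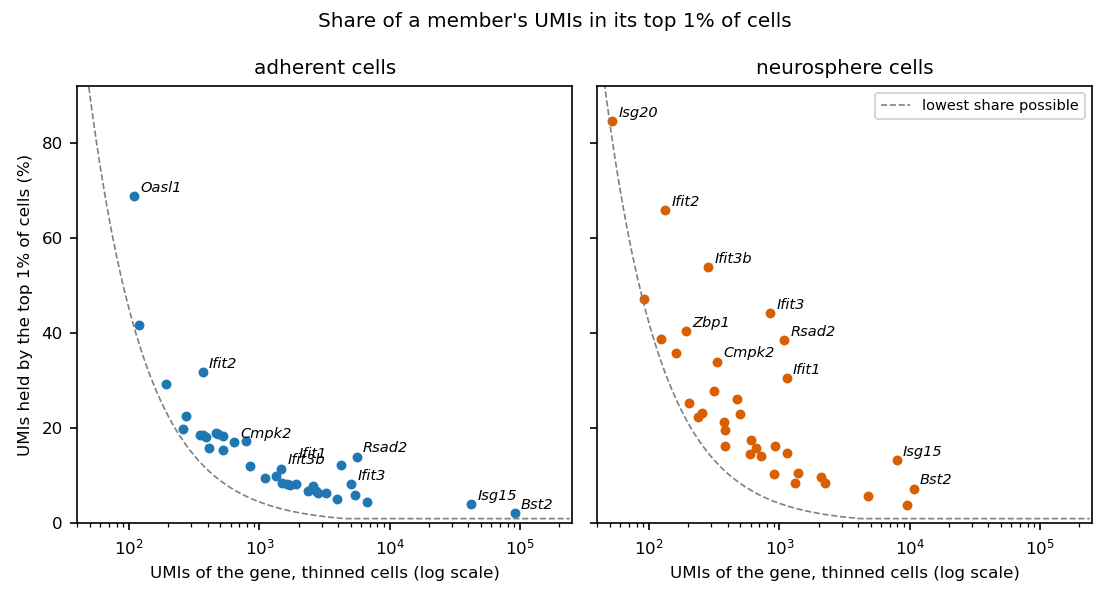
Each point is a member with at least 50 thinned UMIs, by its UMIs (x, log scale) and the percent of them in the 1% of cells with the most (y). The dashed line is the lowest share possible, when no cell holds more than 1 UMI until the gene has as many UMIs as cells. Rsad2, Ifit1, Ifit3 and Ifit3b stand farther above that line in neurosphere than in adherent cells, while Isg20 in neurosphere cells lies close to it.

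All 8 members that were uneven in either culture had a promoter window, and 6 of them (75%) held the response element core, 5 with at least 2 cores. Of the other 22 members with a window, 7 (31.8%) held it, 2 with at least 2 cores. Ifit2 and Cmpk2 were the uneven members without the core in this window. Among the 8, Bst2 passed the bound in adherent cells with a dispersion under the median over all genes.

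To ask whether members were high in the same cells, 5 genes (Rsad2, Ifit1, Ifit2, Ifit3 and Cmpk2) were used as an index. At equal depth, at least 2 of the 5 were detected in 49.2% of adherent cells (47.7% to 50.7%) and in 9.49% of neurosphere cells (8.62% to 10.4%). At least 3 were detected in 23.5% and 3.43%. Per 10000 UMIs of a cell, the index genes had a median of 4.10 UMIs in adherent and 0.31 in neurosphere cells, and a highest value of 122 and 377. No index UMI was found in 13.8% and 48.8% of kept cells.

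In adherent cells the criterion of 2 genes took in most of the kept cells (63.6%). After the data were seen, cells were therefore ranked by index UMIs per 10000, and the top 1% (51 adherent and 43 neurosphere cells) was set against the rest of its own library. The median of the ratios of CPM in the top 1% to CPM in the rest, over the other members with at least 50 UMIs, was 1.84 in adherent cells and 7.08 in neurosphere cells. Over 2-fold higher in the top 1% were 13 of 33 members in adherent cells, against 6.85% of all genes, and 28 of 32 in neurosphere cells, against 8.45%. With the top 5% of cells, also chosen after seeing the data, the medians were 1.54 and 4.48, and 9 of 33 and 27 of 32 members were over 2-fold higher, against 1.91% and 6.48% of all genes. With the planned criterion of at least 2 genes they were 1.40 and 2.44, with 4 of 33 and 21 of 32 members, against 0.293% and 1.52% of all genes. The top cells were shallower than the rest, with medians of 7585 against 8265.5 UMIs in adherent and 10022 against 13212 in neurosphere cells. Their median mitochondrial share was 2.18% against 2.02% and 4.33% against 3.97%. Immune markers had 3 UMIs in all in the adherent top cells, and 5 in the neurosphere top cells, where 10 of the 12 were at 0. Summed over the markers, this was 7.56 CPM against 13.6 CPM in the rest of the adherent cells. In neurosphere cells it was 9.21 CPM against 5.59 CPM. Ptprc, Itgam, C1qa and Tyrobp were at 0 in both sets.

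**Figure D4:**
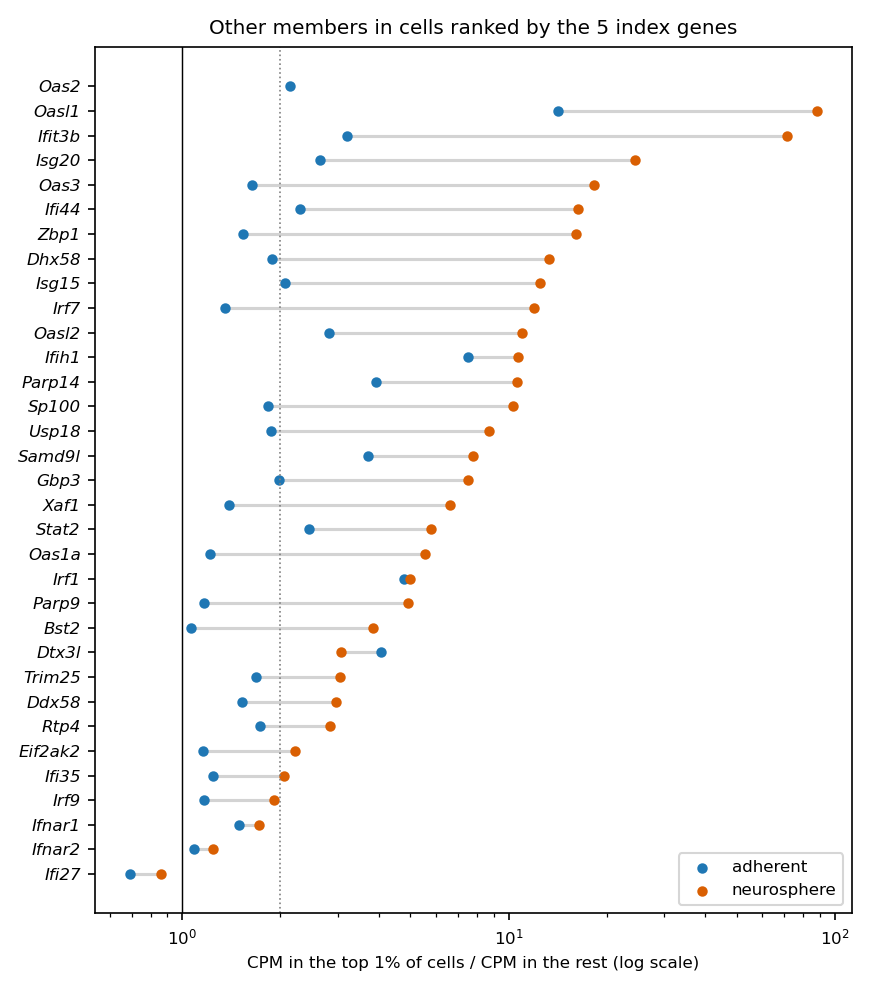
Each member outside the 5 index genes is shown by its CPM in the top 1% of cells over its CPM in the rest (log scale), in adherent and neurosphere cells. The solid line marks equal levels and the dotted line 2-fold. The neurosphere point lies right of the adherent point for all members shown in both cultures but Dtx3l, and Ifi27 lies left of equal levels in both.

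Isg15 had 3948 CPM in the adherent top cells and 4028 CPM in the neurosphere top cells, but 1911 and 323 CPM in the rest. Rsad2, an index gene, had 2998 and 2225 CPM in the top cells and 227 and 34.6 CPM in the rest. Bst2 had 4273 and 1851 CPM in the top cells, against 4014 and 483 CPM in the rest. The values of Isg15 in the top cells depended on how many cells were taken, and with the top 5% they were 3678 CPM in the adherent and 2033 CPM in the neurosphere library. A single neurosphere cell, the one with Ifnb1 described here, held 461 of the 2187 Isg15 UMIs and 456 of the 1208 Rsad2 UMIs of the top 43 cells. Without it the neurosphere top cells had 3403 CPM of Isg15, 1483 CPM of Rsad2 and 1755 CPM of Bst2, and the median ratio of the other members was 6.97. Zbp1 had 128 CPM in adherent and 118 CPM in neurosphere top cells, against 83.7 and 7.33 CPM in the rest. Irf7 had 80.6 and 155 CPM, against 59.8 and 12.9 CPM. Usp18 had 224 and 392 CPM, against 120 and 44.9 CPM.

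The receptor subunits and Irf9 differed by less than 2-fold between top cells and the rest. Ifnar1 was 1.496 times and Ifnar2 1.09 times as high in adherent top cells as in the rest, and 1.71 and 1.24 times in neurosphere cells. Irf9 had ratios of 1.16 and 1.91, and Stat2 of 2.44 and 5.765. Irf1 had nearly the same ratio in both cultures, 4.78 and 4.98. Ifih1 was also high in the top cells of both, with ratios of 7.53 and 10.7. Ifi27 was at 0.69 and 0.86 of the level in the rest.

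Members were also compared by co-detection with Rsad2 at equal depth. Ifit3 was found in 62.3% of adherent cells with an Rsad2 UMI and in 43.5% of those without, while the neurosphere shares were 22.5% and 5.35%. For Ifit1 the shares were 52.8% and 33.0% in the adherent library and 31.0% and 11.9% in the neurosphere library. Over members found in at least 50 thinned cells, the share in Rsad2-positive cells was the higher for 34 of 36 in adherent and 32 of 34 in neurosphere cells, against 51.2% and 52.2% of all genes. It was over 2 times as high for 4 and 13 of them, against 0.105% and 0.465% of all genes. The median ratio was 1.198 and 1.87 over the members, and 1.00 and 1.01 over all genes.

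Outside the 40 genes, only genes with at least 50 UMIs in the top cells were ranked, with 1 CPM added to both levels. Among these, the gene with the largest ratio in the top cells was Cxcl10 in both cultures. It had 4903 CPM against 256 CPM in adherent cells and 2135 against 6.85 CPM in neurosphere cells. The chemokine gene Ccl5 followed in adherent cells, with 607 against 33.9 CPM. In neurosphere cells with at least 2 index genes, the leading genes after Cxcl10 were Iigp1, Gbp2, Gm4951, Ifi47 and Igtp. Among these are genes of interferon-inducible GTPases. In adherent cells with at least 2 index genes, Ccl5, Krt17, Acod1, Ifi47 and Gbp2 followed Cxcl10. Ripk2, Pdzd2, Phactr4 and Atf3 came after Ccl5 in the adherent top 1%.

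Of 21 interferon genes with a row, 17 had no UMI in either library. A bound set at 3 cells per library, not an exact interval, is 0.0594% of adherent and 0.0702% of neurosphere cells. This limits cells with a UMI and not cells with the transcript, and Trex1, a DNase gene of the sensor list, was also listed at 0 in both libraries. Ifnab had 1 UMI in each library and Ifnl3 had 1 in adherent cells. Ifnz had the most, with 398 and 95 UMIs in 7.42% and 2.17% of cells (-2.56, -2.89 to -2.23). Ifnb1, the type I interferon most cell types can make, had 23 UMIs in 10 adherent cells, and 1 neurosphere cell held 2. All 10 adherent cells had at least 2 of the 5 index genes and 7 had all 5. The 10 cells had 1864 CPM of Rsad2 against 246 CPM in the other adherent cells, 4064 against 1922 CPM of Isg15, and 4080 against 4016 CPM of Bst2. Their median depth was 11193.5 UMIs against 8258. These cells were singled out after the data were seen.

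The neurosphere cell with Ifnb1 had 35677 UMIs, among them 456 of Rsad2, 126 of Ifit1, 138 of Ifit3, 461 of Isg15 and 115 of Bst2. It alone held 13.3% of all Rsad2 UMIs and 13.7% of all Ifit2 UMIs of the kept neurosphere cells. The cell with the highest index value, 377 per 10000, had 6602 UMIs and no Ifnb1.

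Without the top 1% of cells, a comparison added after seeing the data, the index genes were lower in both libraries by construction, since the cells left out were ranked by them. The log2 ratio was then -2.72 for Rsad2, -3.40 for Ifit3, -2.09 for Ifit2 and -1.19 for Cmpk2, and 22 of 38 members were over 2-fold lower, against 11.7% of all genes. In neurosphere cells 3 of 34 members were then uneven (Ifit3, Isg15 and Bst2) in place of 8 of 35, against 3.47% of all genes. In adherent cells 6 of 37 were uneven in place of 5, against 1.48%. Of the 5 that were no longer uneven in neurosphere cells, Rsad2, Ifit1, Ifit2 and Cmpk2 were index genes.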

How the data were processed

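GL261 cells from 1 adherent and 1 neurosphere culture were sequenced with the 10x Genomics 3′ v3 chemistry. The authors deposited raw UMI counts per gene and called cell, made with Cell Ranger 7.0.1 on mm10 per the submitters' processing notes. Whether intronic reads were counted is not given in the sources used here. The libraries held 5764 and 4951 called cells with 68531063 and 82832873 UMIs.

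In the order of the study's methods, 13 mitochondrial and 101 ribosomal genes were removed and then cells under 1000 UMIs, or under 1250 (adherent) or 2250 (neurosphere) genes, which left 5051 and 4276 cells with 46290996 and 64943938 UMIs. With cells filtered before gene removal, an alternative, 5073 and 4300 cells were left, the numbers of cells the study states. No doublet caller was run and no doublets were removed. The deepest 5% of cells were left out as an alternative. CPM were computed from summed UMIs, with exact Poisson, binomial and conditional intervals of 95%. With 1 library per culture no test was run. Cells were not treated as replicates. Unevenness was computed on cells thinned to 5000 UMIs with a fixed seed, and the interval and spread measures were tested on simulated data. Motif cores were counted in RefSeq promoter windows of GRCm38.p6, and positions came from GENCODE for GRCm38. Usp18, Oas2, Dhx58, Zbp1, Ifi27, Parp9, Parp14 and Rtp4 had no window.

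The 40 members, the gene lists and the index genes were chosen with earlier results of these data known. Named with values were members over 2-fold different, index genes, uneven members, the receptor subunits, Stat2, Irf1, Irf7 and Irf9, and the genes with the largest ratio in index cells. Others were added after their values were seen. Alternatives covered the cell filter, gene removal, scaling, depth, the minimum of UMIs, the fold formula and the index criterion. The ranking of cells, its top 1% and top 5%, the cell with the most UMIs of a gene, and the cells with Ifnb1 were chosen after seeing the data. Python 3.11.15, numpy 2.4.6, scipy 1.17.1, pandas 2.3.3, matplotlib 3.10.9, R 4.3.3 and edgeR 4.0.16 (for TMM only) were used.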

Additional observations from a re-analysis of the deposited data

How the results depend on the processing

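The count of members over 2-fold lower was also 19 under 8 alternatives and was 22 with TMM scaling, which moved the median over all genes from 0.32 to 0.11 on the log2 scale and their split from 3181 higher and 1711 lower to 2354 and 2128. When the total also counted mitochondrial and ribosomal genes, the median over all genes was 0.54 with 4325 higher and 1375 lower, 2 members were over 2-fold higher (Ifi27 at 1.10 and Parp9 at 1.02), and the members' median was -0.94. The sign turned for Irf9 under TMM scaling (-0.030) and for Ddx58 with those genes counted (0.097) or in thinned cells (0.012). It also turned for the 4 members whose interval includes 0, to as much as 0.28 for Stat2 and 0.16 for Dtx3l in thinned cells and 0.20 for Irf1 and 0.16 for Parp14 with those genes counted. The share of cells with at least 2 index genes was 34.3% in adherent and 5.43% in neurosphere cells at 3000 UMIs, and 23.5% and 3.43% for at least 3 genes or 79.5% and 30.4% for at least 1. The median ratio of other members in index cells was 1.40 in adherent and 2.44 in neurosphere cells for at least 2 genes, and 1.37 and 3.13 for at least 3. Without the top 1% of cells, 3 neurosphere members were uneven in place of 8. No paired analysis was possible because each culture is 1 library, and for the same reason no replicate could be left out. Depth limits the rare members most, such as Oas2 with 55 and 39 UMIs.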

Other observations

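The barcodes left out by the cell filter also held members. The 713 adherent barcodes left out, with a median mitochondrial share of 48.8%, had 7235 CPM of members against 8722 CPM in kept cells. The 675 neurosphere barcodes left out, with a median mitochondrial share of 87.0%, had 3398 CPM against 2372 CPM. For the 5 index genes the values were 610 against 709 CPM in adherent and 338 against 153 CPM in neurosphere barcodes.

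Cxcl10 was detected in 1728 adherent cells, with 13675 UMIs, and in 146 neurosphere cells, with 1600. The adherent cells with Cxcl10 had 449 CPM of Rsad2 against 122 CPM in those without, and the neurosphere cells 446 against 34.6 CPM. For Bst2 the values were 4159 against 3922 CPM in adherent and 844 against 478 CPM in neurosphere cells. The cells with Cxcl10 were deeper, with medians of 9306.5 against 7737 UMIs in adherent and 16737.5 against 13041.5 in neurosphere cells.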
